A study of Mus musculus with 8 samples.

Results

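The hypoxia-inducible factors and their oxygen sensors were followed through 10 genes of 24344 distinct symbols in the expression table. The genes were taken by symbol, with no cut on their values, though with earlier results of these data known. They were the alpha subunits Hif1a, Epas1 and Hif3a, the shared partner Arnt, the prolyl hydroxylases Egln1, Egln2 and Egln3, the ubiquitin ligase subunit Vhl, the asparaginyl hydroxylase Hif1an and the target gene Vegfa. All 10 were found, each once. RNA was measured in homogenised occipital cortex, the visual part of the neocortex, of C57BL/6J mice aged 35 postnatal days. The libraries were 4 from mice kept without food for 48 h and 4 from mice fed ad libitum, with no genetic change or other treatment named for either group. The comparison asks which cortical transcripts differ after fasting.

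Cells make HIF alpha subunits all the time and, while oxygen is present, prolyl hydroxylases mark them for capture by the VHL ubiquitin ligase and destruction. When oxygen is short the alpha subunit escapes, enters the nucleus, pairs with ARNT and binds hypoxia response elements whose core is ACGTG or GCGTG, in genes for glucose uptake, glycolysis and vessel growth. Most of this control acts on protein, which these data do not measure, so the values below are RNA levels only.

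Among the members, fasting went with a large rise of Hif3a and with smaller falls of Vegfa and Arnt. Hif3a averaged 3.32 ± 0.40 FPKM (fragments mapped to a gene, corrected for transcript length and library depth) in fasted cortex and 0.785 ± 0.12 in ad libitum cortex, a 4.23-fold ratio. Vegfa averaged 14.6 ± 0.74 FPKM in fasted cortex and 19.0 ± 0.74 in ad libitum cortex, and Arnt 8.74 ± 0.49 in fasted cortex and 10.2 ± 0.32 in ad libitum cortex (SD, n = 4 each). The other 7 members did not pass the test. All levels are FPKM and all log2 changes are fasted over ad libitum on log2(FPKM + 1), a scale that shrinks the changes of weakly expressed genes. Tests are limma with Benjamini-Hochberg adjusted p over all 12377 genes tested, and a gene is called at an adjusted p under 0.05.

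Across the transcriptome 25.8% of tested genes were called, 9.56% higher (1183 genes) and 16.3% lower (2015 genes) in fasted cortex. Of the members 1 of 10 was called higher and 2 of 10 lower, counts near those shares. Values of fasted and ad libitum libraries were fully apart for 27.6% of tested genes, 11.1% with fasted cortex higher and 16.5% lower, and for 4 members, Hif1a and Hif3a higher and Arnt and Vegfa lower. The share of calls that were higher was 37.0% as deposited, 47.1% after median-ratio scaling, 48.4% after quantile scaling and 74.9% after equal-sum scaling. The last shifted the median of all genes by 0.11 on the log2 scale, to 0.085 against -0.024 as deposited. Relative to the median of all genes, every member kept its direction under these scalings. Scaling a library moves nearly all its genes alike, so that outcome was largely fixed in advance and does not test the calls. Without that step, equal-sum scaling turned the sign of Vhl, Egln3 and Hif1an and ended the calls of Arnt and Vegfa.

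Estimated depth was 17030000 to 22440000 fragments per library, an uncertain figure since FPKM do not give it directly. FPKM totals were 253470 to 360010, highest in ad libitum replicate 2, where 2 rows named Mir684-1 and Mir684-2 stood at 40330 and 37300 FPKM. Ad libitum replicate 3 held both Xist, at 32.2 FPKM, and the Y-linked Ddx3y, at 5.67, whereas each other library held one of them at or below 0.0495 FPKM and the other at no less than 62.9 (Xist) or 10.5 (Ddx3y). Member calls and list counts that differ without it are given below. Excitatory neuron markers summed to 1748 to 2019 FPKM in fasted and 1710 to 2137 FPKM in ad libitum libraries, yet 5 of the 10 were called lower and 1 higher, with a median change of -0.166. The number lower was 2 without fasted replicate 2, fasted replicate 4 or ad libitum replicate 3, 3 without ad libitum replicate 2, and 0 after equal-sum scaling. Choroid plexus markers summed to 1.53 to 3.54 FPKM in fasted and 0.860 to 1.74 FPKM in ad libitum libraries. The labels do not say that each library is a separate animal, so p-values measure the spread between these samples.

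The promoter windows of the 3 called members are printed here, as they are the genes on which the results turn. Each runs from 250 bases before to 50 after the start of a RefSeq transcript, on the gene's strand, in build GRCm38.p6. Capitals mark the core ACGTG or GCGTG, or its reverse complement CACGT or CACGC, and overlapping matches were each counted.
Hif3a, chr7:17062378-17062677, minus strand: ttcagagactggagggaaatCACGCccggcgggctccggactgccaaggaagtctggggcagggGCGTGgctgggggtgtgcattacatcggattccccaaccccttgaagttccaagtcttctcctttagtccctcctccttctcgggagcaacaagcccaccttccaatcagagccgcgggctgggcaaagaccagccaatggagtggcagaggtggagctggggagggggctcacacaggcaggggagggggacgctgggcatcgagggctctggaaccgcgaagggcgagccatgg
Arnt, chr3:95434140-95434439, plus strand: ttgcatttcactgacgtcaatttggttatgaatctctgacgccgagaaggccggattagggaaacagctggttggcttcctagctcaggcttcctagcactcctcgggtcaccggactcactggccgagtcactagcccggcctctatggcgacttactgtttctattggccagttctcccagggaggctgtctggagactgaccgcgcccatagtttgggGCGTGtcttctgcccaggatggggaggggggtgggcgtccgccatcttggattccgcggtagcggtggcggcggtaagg
Vegfa, chr17:46032328-46032627, minus strand: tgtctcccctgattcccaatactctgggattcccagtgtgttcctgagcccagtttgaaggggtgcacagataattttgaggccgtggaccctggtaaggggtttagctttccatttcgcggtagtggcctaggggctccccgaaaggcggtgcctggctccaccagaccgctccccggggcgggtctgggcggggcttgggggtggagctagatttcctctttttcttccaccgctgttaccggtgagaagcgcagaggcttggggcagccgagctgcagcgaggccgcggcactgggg

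The Hif3a window held the core at 2 places, both GCGTG in kind, the Arnt window at 1 and the Vegfa window at 0. The distal enhancer through which hypoxia is known to act on Vegfa lies further upstream than this window reaches. RefSeq windows were to hand for 9 members, of which 6 held a core: Egln2 at 6 places, Hif1a at 3, Hif3a and Egln1 at 2 each, and Arnt and Egln3 at 1 each. Vhl, Hif1an and Vegfa held none. For Vegfa and Egln2, which had 2 windows each, only the window nearest the annotated gene start was searched. The only Hif1a window, from chr12:73907617, lies within the annotated gene, downstream of its start. Of 32851 RefSeq promoter windows of the same length 43.8% held a core, 19.6% ACGTG and 32.4% GCGTG. A match is a run of letters and not a measured binding site.

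**Figure D1:**
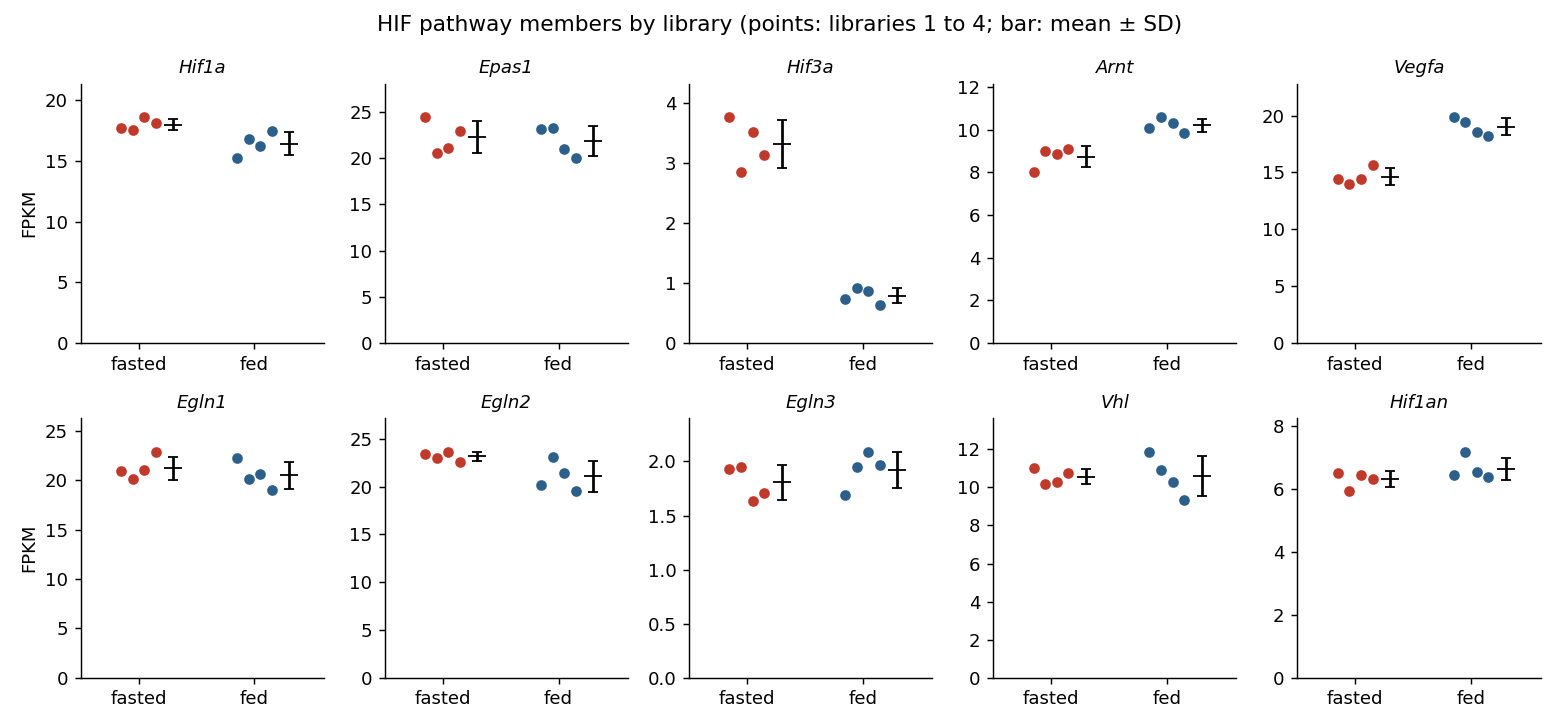
FPKM of the 10 members in each library, fasted (left) and ad libitum (right, marked fed), with points for libraries and bars for the group mean and SD. The groups are apart for Hif3a and Hif1a, where fasted libraries lie higher, and for Vegfa and Arnt, where they lie lower.

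Hif1a encodes the ubiquitous alpha subunit that drives acute transcription in hypoxia. Its gene lies at chr12:73901375-73947530 on the plus strand (GRCm38, as are all gene coordinates here). Fasted libraries held 17.7, 17.6, 18.6 and 18.1 FPKM of Hif1a and ad libitum libraries 15.3, 16.8, 16.2 and 17.4 FPKM. The groups did not overlap, and the lowest fasted library (17.6) stood just above the highest ad libitum one (17.4). The change was 0.13 on the log2 scale (SE 0.052, 95% interval 0.011 to 0.241), with a limma adjusted p of 0.0999, so Hif1a was not called. Without ad libitum replicate 4 it was called, at 0.15 and an adjusted p of 0.0463. The genes Gm15283, on the opposite strand, and Gm49321, on the same strand, overlap Hif1a in the annotation and were not analysed here.

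Epas1 encodes the alpha subunit first described in endothelium, which in brain is also found in astrocytes and pericytes, and lies at chr17:86753700-86833410 on the plus strand. Its level was 20.6 to 24.4 FPKM in fasted libraries and 20.1 to 23.3 FPKM in ad libitum libraries. The ranges overlapped almost wholly. The change was 0.024 (95% interval -0.127 to 0.175, limma adjusted p = 0.823), so a change of more than about 0.175 on that scale, in either direction, lay outside the interval. Its sign turned when fasted replicate 1 (-0.019) or ad libitum replicate 4 (-0.015) was left out.

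Hif3a encodes the least known alpha subunit, whose splice forms include some that restrain the other HIFs, and lies at chr7:17031507-17062427 on the minus strand. Fasted libraries held 3.765, 2.855, 3.527 and 3.144 FPKM of Hif3a, against 0.7285, 0.9095, 0.8629 and 0.6408 FPKM in ad libitum libraries. Every fasted library stood above every ad libitum library, none of which reached 1 FPKM. The change was 1.27 (SE 0.083, 95% interval 1.09 to 1.46, limma adjusted p = 1.48e-05), the 8th highest log2 change of all tested genes.

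At the estimated depth the Hif3a level stood for 48.6 to 79.1 fragments per kilobase of transcript in fasted libraries and 11.95 to 16.97 in ad libitum libraries, counts that are low but not single reads. Hif3a passed the filter on low values only through the fasted group, so its presence among the tested genes already favoured a rise. Without any filter it was called too, and it was called in all 18 alternatives that tested it, with changes of 1.225 to 1.954. The annotation gives 4 coding transcripts of 371 to 6402 bases, and the values are sums per gene that do not show which of them was present. A gene on the opposite strand, 4833404L02Rik, overlaps Hif3a, and with no strand stated for the libraries its reads could not be told from those of Hif3a.

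The alpha subunits together summed to 43.6 ± 2.05 FPKM in fasted cortex and 39.1 ± 1.36 in ad libitum cortex. Hif3a made up 8.20, 6.96, 8.15 and 7.11% of that sum in fasted libraries and 1.86, 2.22, 2.27 and 1.68% in ad libitum libraries, with no overlap. Epas1 made up 51.1 ± 1.89% in fasted and 56.0 ± 2.80% in ad libitum cortex. Hif1a made up 41.3 ± 2.04% in fasted and 42.0 ± 2.88% in ad libitum cortex. Even at its fasted level Hif3a thus stayed the least abundant alpha subunit in RNA.

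**Figure D2:**
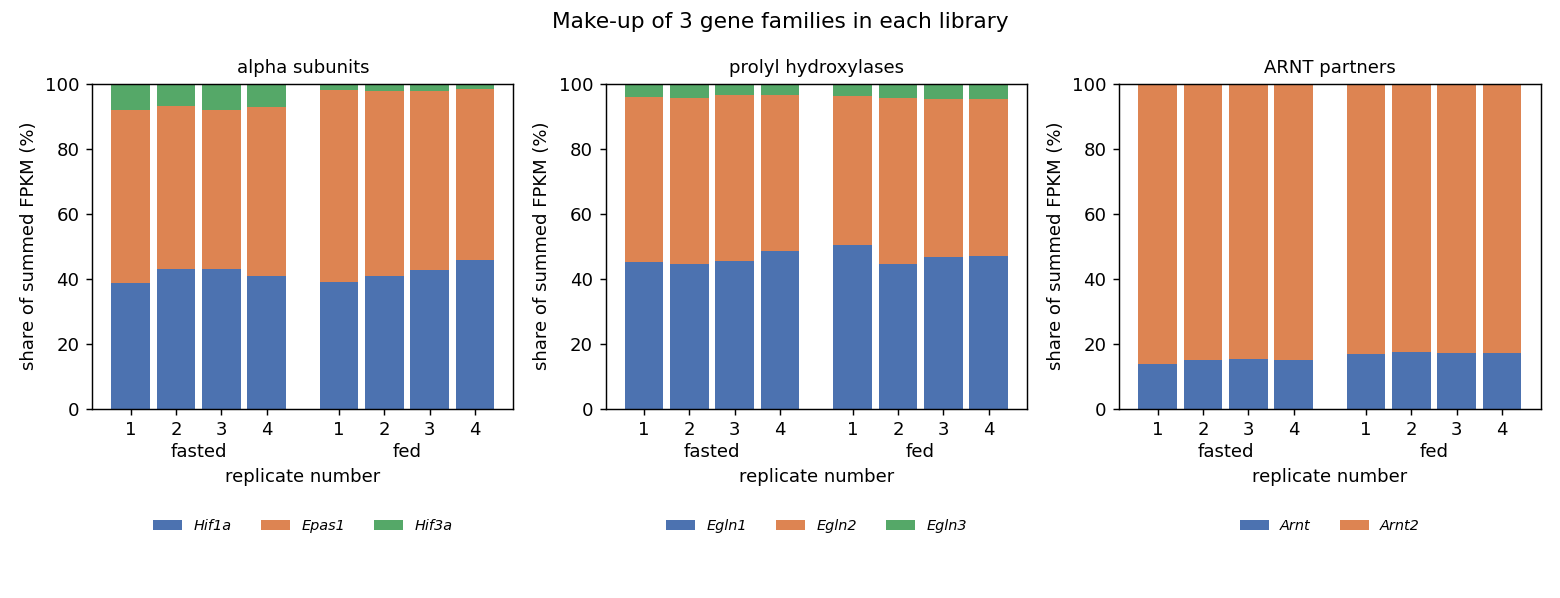
Share of each gene in the summed FPKM of its family (%), with 1 bar per library, fasted on the left and ad libitum (marked fed) on the right of each panel. Hif3a takes 6.96 to 8.20% of the alpha subunits in fasted libraries and 1.68 to 2.27% in ad libitum libraries, and Arnt takes 13.6 to 15.2% of Arnt and Arnt2 in fasted libraries and 16.9 to 17.4% in ad libitum libraries.

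Arnt encodes the constitutive partner with which HIF alpha subunits bind DNA, and lies at chr3:95434388-95497240 on the plus strand. Fasted libraries held 8.02, 9.02, 8.84 and 9.07 FPKM of Arnt, against 10.1, 10.6, 10.3 and 9.84 FPKM in ad libitum libraries. The highest fasted library stayed below the lowest ad libitum one. The change was -0.20 (SE 0.054, 95% interval -0.321 to -0.083, limma adjusted p = 0.0191). The call ended without fasted replicate 1, ad libitum replicate 2 or ad libitum replicate 3 (adjusted p 0.0533 to 0.0553), and after equal-sum scaling (-0.088, adjusted p = 0.618).

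Arnt2 encodes the neuronal relative that can take the same place beside the alpha subunits. It averaged 50.7 ± 0.85 FPKM in fasted cortex and 49.2 ± 1.18 in ad libitum cortex, a change of 0.043 with a limma adjusted p of 0.52. Arnt took 14.7 ± 0.71% of the sum of both in fasted cortex and 17.2 ± 0.18% in ad libitum cortex, and the sum itself was 59.4 FPKM in each group. Most HIF partner RNA was therefore Arnt2 in both groups.

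Vegfa encodes the secreted growth factor for blood vessels that is the best known HIF target, and lies at chr17:46016993-46032369 on the minus strand. Fasted libraries held 14.45, 13.95, 14.42 and 15.68 FPKM of Vegfa, against 19.83, 19.45, 18.57 and 18.24 FPKM in ad libitum libraries. The groups were well apart, with 15.7 FPKM as the highest fasted and 18.2 FPKM as the lowest ad libitum value. The change was -0.36 (SE 0.053, 95% interval -0.475 to -0.242, limma adjusted p = 0.000972), a ratio of means of 0.769. It held in every setting that left out a library and ended after equal-sum scaling (-0.24, adjusted p = 0.113). Without the 4 rows above 10000 FPKM, which are the 2 Mir684 rows of ad libitum replicate 2, Mir6363 in ad libitum replicate 3 and Mir703 in fasted replicate 2, a setting added after the data were seen, that scaling left Vegfa called.

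**Figure D3:**
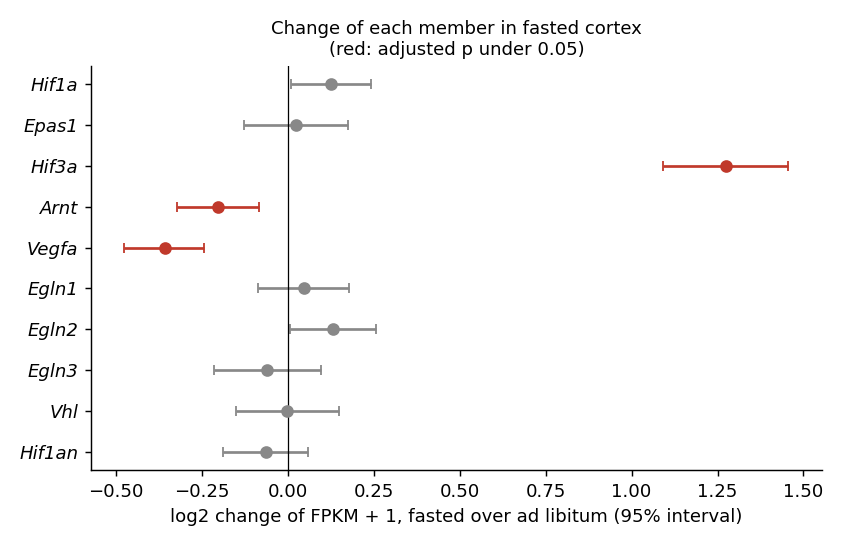
log2 change of FPKM + 1, fasted over ad libitum, with its 95% interval for each member, in red where the adjusted p was under 0.05. Hif3a stands at 1.27, Vegfa at -0.36 and Arnt at -0.20, and the intervals of Hif1a and Egln2 lie just above 0 although neither was called.

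The prolyl hydroxylases hydroxylate HIF alpha subunits with oxygen and oxoglutarate as substrates. Egln1, the main sensor in most tissues, lies at chr8:124908587-124949324 on the minus strand and held 20.1 to 22.8 FPKM in fasted and 19.0 to 22.3 FPKM in ad libitum libraries. Its ranges overlapped, with a change of 0.047 (95% interval -0.085 to 0.179, limma adjusted p = 0.598). Egln3, itself a known HIF target that rises in hypoxia, lies at chr12:54178981-54203860 on the minus strand and held 1.63 to 1.95 FPKM in fasted and 1.69 to 2.09 FPKM in ad libitum libraries. Its change was -0.059 (95% interval -0.213 to 0.096, adjusted p = 0.573), and it turned to 0.022 after equal-sum scaling.

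Egln2, the prolyl hydroxylase found largely in the nucleus, lies at chr7:27158658-27166802 on the minus strand. Fasted libraries held 23.4, 23.0, 23.6 and 22.6 FPKM of Egln2, against 20.2, 23.1, 21.4 and 19.5 FPKM in ad libitum libraries. Only ad libitum replicate 2 reached into the fasted range. The change was 0.13 (95% interval 0.008 to 0.258, limma adjusted p = 0.107). A gene on the opposite strand, Cyp2t4, overlaps Egln2 and averaged 0.0354 FPKM in fasted and 0.0181 FPKM in ad libitum cortex. Egln2 was called higher after median-ratio scaling (0.16, adjusted p = 0.0229), after quantile scaling (0.16, 0.0268) and without ad libitum replicate 2 (0.18, 0.046).

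In summed FPKM the prolyl hydroxylases came to 46.2 ± 0.86 in fasted cortex and 43.5 ± 2.07 in ad libitum cortex. Egln2 took 50.2 ± 1.49% in fasted and 48.4 ± 2.21% in ad libitum cortex, Egln1 45.9 ± 1.71% in fasted and 47.2 ± 2.44% in ad libitum cortex. Egln3 took 3.92 ± 0.40% in fasted and 4.43 ± 0.46% in ad libitum cortex. Each of these shares overlapped between the groups, unlike that of Hif3a among the alpha subunits.

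Vhl encodes the ligase subunit that recognises hydroxylated HIF alpha, and lies at chr6:113623959-113631633 on the plus strand. It held 10.2 to 11.0 FPKM in fasted and 9.31 to 11.85 FPKM in ad libitum libraries. Its change was -0.001 (95% interval -0.150 to 0.148, limma adjusted p = 0.992), with a sign that turned under several settings. Hif1an encodes the asparaginyl hydroxylase that keeps coactivators off HIF alpha, and lies at chr19:44562850-44576274 on the plus strand. It held 5.94 to 6.51 FPKM in fasted and 6.39 to 7.17 FPKM in ad libitum libraries, a change of -0.064 (95% interval -0.188 to 0.059, adjusted p = 0.426) that turned to 0.045 after equal-sum scaling. A p that misses the threshold does not show that the groups were alike, and the intervals leave changes of up to about 0.26 on the log2 scale for the uncalled members.

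The order of the members' levels, per length, differed between the groups in 3 places, 1 of them among genes with overlapping ranges (Egln2 and Epas1). In fasted cortex Egln2, Epas1 and Egln1 led with overlapping ranges, followed by Hif1a, Vegfa, Vhl, Arnt, Hif1an, Hif3a and Egln3, each apart from the next. In ad libitum cortex Epas1, Egln2, Egln1 and Vegfa led with overlapping neighbours, followed by Hif1a, Vhl and Arnt (the last pair overlapping), Hif1an, Egln3 and Hif3a. Vegfa stood above Hif1a in ad libitum cortex and below it in fasted cortex, and Hif3a stood below Egln3 in ad libitum cortex and above it in fasted cortex.

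By replicate number Hif3a and Hif1a were higher in the fasted library in 4 of 4 pairs, and Arnt and Vegfa lower in 4 of 4. Hif3a differed by 3.04, 1.95, 2.66 and 2.50 FPKM within the pairs. Epas1 and Egln2 were higher in 3 of 4 pairs, Egln1 and Egln3 in 2, and Vhl and Hif1an in 1.

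The genes whose profile over the 8 libraries was most like that of a member are given as description, since group differences alone produce such likeness. For Hif3a they were Tsc22d3 (Pearson r 0.998 over 8 libraries), Fkbp5 (0.995) and Rbm3 (0.994). Tsc22d3 averaged 45.4 FPKM in fasted and 24.15 FPKM in ad libitum cortex. For Vegfa they were Mapk11 (0.993), Xbp1 (0.990) and Mxra7 (0.990). For Hif1a they were Rapgef2 (0.979), Atp13a3 (0.978) and Nipbl (0.973), and for Epas1 Isca1 (0.973), Hps5 (0.965) and Ubl3 (0.954).

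Among genes known as HIF targets in the hypoxia response, 12 of 26 tested rose, 2 fell and 12 did not pass the test. The median change was 0.135, against -0.024 for all tested genes, of which 9.56% were called higher and 16.3% lower. The list was chosen with earlier results of these data known, so these counts are description only. The number that rose was 10 without ad libitum replicate 1, 2 or 3, with Pfkfb3 and Zfp395 lost (adjusted p 0.0520 to 0.0595). Zfp395 was lost when any library but fasted replicate 4 was left out (0.0567 to 0.094), and with no filter on low values (0.0545). The list holds 3 members, Vegfa, Egln1 and Egln3. Several of its other genes, Kdm3a, Pfkfb3, Cited2 and Apln among them, are counted again in the lists below. Kdm3a, a histone demethylase, rose to 12.1 FPKM in fasted cortex, against 8.64 in ad libitum cortex (0.44, limma adjusted p = 0.000562). Tfrc, the transferrin receptor, rose to 29.2 FPKM in fasted cortex, against 22.8 in ad libitum cortex (0.34, adjusted p = 0.000914). Apln, a vascular peptide ligand, fell to 2.45 FPKM in fasted cortex, against 5.88 in ad libitum cortex (-0.99, adjusted p = 2.72e-05). Epo, chosen after its values were seen, was listed at 0 in all 8 libraries.

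Of 19 tested HIF targets in glucose use, 2 rose, 2 fell and 15 did not pass, with a median change of 0.022. Over all tested genes 9.56% were called higher and 16.3% lower, and these counts are near those shares. Slc2a1, the glucose transporter of the blood-brain barrier and astrocytes, rose to 32.2 ± 4.35 FPKM in fasted cortex, against 19.65 ± 0.67 in ad libitum cortex (0.68, limma adjusted p = 0.000341). Pdk1, a kinase that inhibits pyruvate dehydrogenase, fell to 9.03 FPKM in fasted cortex, against 11.85 in ad libitum cortex (-0.36, adjusted p = 0.000923). Ldha, a lactate dehydrogenase subunit, fell to 108 FPKM in fasted cortex, against 129 in ad libitum cortex (-0.25, adjusted p = 0.0133). Pfkfb3, a regulator of glycolysis, rose by 0.32 (adjusted p = 0.0196), a call lost without ad libitum replicate 1, 2 or 3 (0.0520 to 0.0531), which left 1 gene higher. After median-ratio scaling 4 rose, with Aldoc, the aldolase of astrocytes (0.21, adjusted p = 0.0207), and the neuronal glucose transporter gene Slc2a3 (0.12, 0.0439) gained. Aldoc, at 248 FPKM in fasted and 219 FPKM in ad libitum cortex, was called as well after the other 3 scalings and with the replicate block (adjusted p 0.00285 to 0.0174). With that block Eno1 was called lower (-0.149, adjusted p = 0.0123). After equal-sum scaling Pdk1 (adjusted p = 0.11) and Ldha (0.407) were not called.

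Of 11 tested genes of the VEGF and angiopoietin system, 1 rose and 5 fell, with a median change of -0.275. The shares over all tested genes were 9.56% higher and 16.3% lower. The fall of Apln, named above, is among the 5. Tek and Tie1 encode the angiopoietin receptor and its partner on endothelium. Tek fell to 1.54 FPKM in fasted cortex, against 2.63 in ad libitum cortex (-0.52, limma adjusted p = 0.000809), and Tie1 to 0.994 FPKM, against 1.595 in ad libitum cortex (-0.38, adjusted p = 0.00586). Angptl4, a secreted inhibitor of lipoprotein lipase, rose to 2.65 FPKM in fasted cortex, against 0.8255 in ad libitum cortex (0.99, adjusted p = 0.00012), and passed the filter only through the fasted group.

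Some markers of several cell types, those of the vessel wall and microglia among them, were called lower in fasted cortex beside Vegfa and this list. Most endothelial and mural markers were not called. Over all tested genes 16.3% were called lower and 9.56% higher. Of 15 endothelial markers 5 were lower and 0 higher, and their summed level was 91.7 to 106.0 FPKM in fasted and 107.7 to 128.5 FPKM in ad libitum libraries, without overlap. With the replicate block 6 were lower and 2 higher, and after median-ratio or equal-sum scaling 5 lower and 2 higher. None of the 15 was at 0 in any library. Tek, Kdr and Flt1 stand in both lists. Pecam1, at 4.86 FPKM in fasted and 4.59 in ad libitum cortex, was among the 10 not called, and 3 of 10 mural cell markers were lower, their sum being 42.4 to 47.5 FPKM in fasted and 55.23 to 64.55 FPKM in ad libitum libraries. Of 12 astrocyte markers 2 were higher and 4 lower, with sums of 831 to 911 FPKM in fasted and 842 to 905 FPKM in ad libitum libraries. Of 10 microglial markers 5 were lower and 0 higher, with a median change of -0.27 against -0.139 for the endothelial list, and sums of 116.5 to 134.5 FPKM in fasted and 130.7 to 183.0 FPKM in ad libitum libraries. Without ad libitum replicate 4, 9 microglial markers were lower. The number of mural markers lower was 2 without fasted replicate 1, 2 or 4 or ad libitum replicate 2, and after equal-sum scaling. Without ad libitum replicate 3, 4 microglial, 2 mural and 3 astrocyte markers were lower, and after equal-sum scaling 1 astrocyte marker was. The part of these and of neurons in the member results was not tested, and in tissue homogenate fewer cells of a type and less RNA per cell cannot be told apart.

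Of 8 tested PAS-domain relatives of the HIFs, 0 were called by limma (0 at an unadjusted p under 0.05), with a median of 0.016. Over all tested genes 25.8% were called. This list holds Arnt2 and Arntl but not Arnt, which was counted with the members and called lower. The 2 with the smallest p were Arntl, a clock factor, at 13.0 FPKM in fasted and 11.9 in ad libitum cortex (adjusted p = 0.133), and Npas4, an activity-induced factor, at 26.2 FPKM in fasted and 37.2 in ad libitum cortex (0.148). With the replicate number as a block Npas4 was called lower (adjusted p = 0.00282), as it was after equal-sum scaling (0.0137) and without ad libitum replicate 1 (0.0438). Arntl was called higher after median-ratio (0.0333) and quantile scaling (0.0413).

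Of 15 tested genes of the VHL ligase and HIF turnover, 3 rose and 1 fell, with a median of -0.049. Over all tested genes 9.56% were called higher and 16.3% lower. Cul2, the cullin scaffold of the VHL ligase, fell to 8.66 FPKM in fasted cortex, against 10.1 in ad libitum cortex (-0.205, limma adjusted p = 0.0212). Os9, Mdm2 and Usp20 were higher by 0.20, 0.19 and 0.15 (adjusted p 0.0223, 0.0312 and 0.0454). None of these 4 calls remained without fasted replicate 1 or without ad libitum replicate 3. Cul2 was also lost without fasted replicate 2 or ad libitum replicate 2, Os9 without fasted replicate 3, Mdm2 without fasted replicates 3 or 4 or ad libitum replicate 1, and Usp20 whichever library was left out. After equal-sum scaling Cul2 (adjusted p = 0.605) and Usp20 (0.0775) were not called. Without ad libitum replicate 4 the balance turned, with 2 genes higher and 4 lower: Gnb2l1, Stub1 and Tceb2 joined Cul2 (adjusted p 0.0118 to 0.0194). With the replicate block 3 of the 15 were lower.

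Of 12 tested HIF coactivators and modulators 4 rose and 0 fell, with a median of 0.129. The shares over all tested genes were 9.56% higher and 16.3% lower. Cited2, which competes with HIF alpha for the coactivators p300 and CBP and is itself a HIF target, rose to 21.5 FPKM in fasted cortex, against 16.4 in ad libitum cortex (0.36, limma adjusted p = 0.00557). Crebbp, the gene for CBP, rose by 0.29 (adjusted p = 0.0138) and Ncoa1 by 0.22 (0.0101). The call of Cited1 (0.34, 0.0408) was lost when any library but fasted replicate 4 or ad libitum replicate 4 was left out (0.0706 to 0.117), and with no filter on low values (0.068).

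Other enzymes that need oxygen, most of them with oxoglutarate as well, rose in 6 of 19 tested cases and fell in 0. Their median was 0.131, and of all tested genes 9.56% were called higher and 16.3% lower. Tet2, a methylcytosine dioxygenase, rose to 10.2 FPKM in fasted cortex, against 6.42 in ad libitum cortex (0.59, limma adjusted p = 9.59e-05). Kdm3a, named above, and Kdm4b, both histone demethylases, are in this list as well, and Kdm4b rose by 0.23 (adjusted p = 0.0105). P4htm, a membrane prolyl hydroxylase that can act on HIF alpha, rose to 25.2 FPKM in fasted cortex, against 19.9 in ad libitum cortex (0.33, adjusted p = 0.0128). Kdm5a was lost without fasted replicate 3 or 4 or ad libitum replicate 1, 2 or 3 (adjusted p 0.0525 to 0.0732), which left 5 higher. Without ad libitum replicate 4, 9 were higher. With the replicate block 8 of the 19 were higher, with Fto and Tet3 gained (adjusted p 0.0355 and 0.0174), and 1, P4ha1, was lower.

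**Figure D4:**
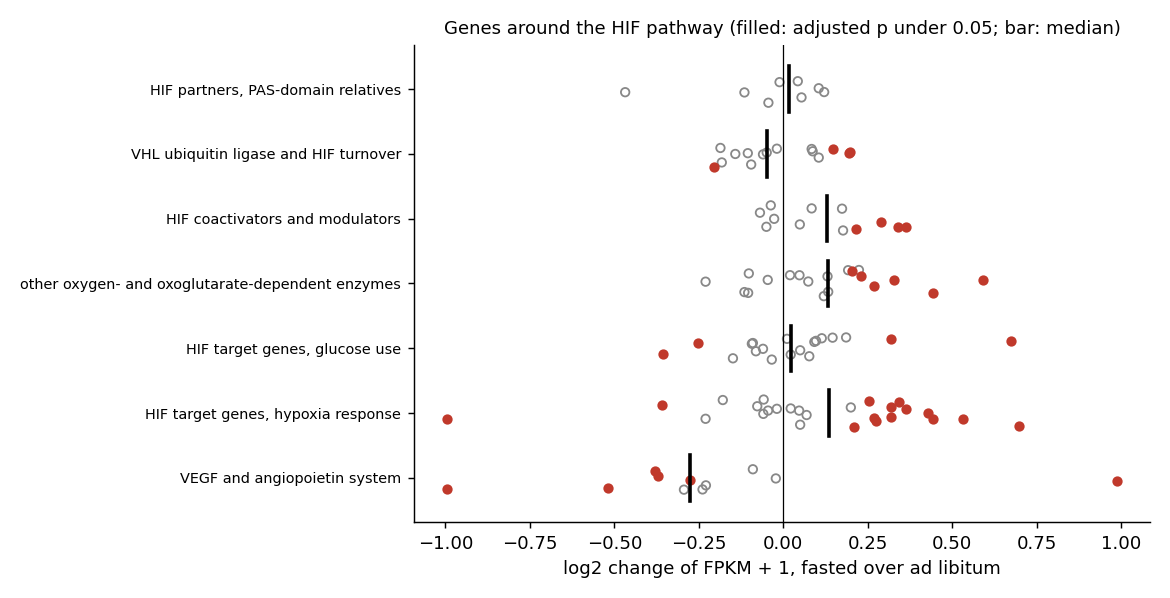
log2 change of FPKM + 1, fasted over ad libitum, of each tested gene in each pathway list, with filled points for called genes, open points for the others, a bar for the list's median and a vertical spread only for legibility. The hypoxia response list has 12 higher and 2 lower genes, and the VEGF and angiopoietin list 1 higher and 5 lower. Over all tested genes 9.56% were called higher and 16.3% lower. The lists were chosen with earlier results of these data known.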

How the data were processed

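RNA-seq libraries of occipital cortex, 4 fasted and 4 ad libitum, were grouped by the treatment label. Per the submitters' processing notes, TopHat and build mm10 were used. Not given in the sources used here are the TopHat version, the quantifying program, the annotation and strandedness. The authors deposited FPKM in a single table of 24883 rows. Where a symbol stood on several rows (282 symbols), the highest-mean row was kept. The header does not name the unit, so FPKM rests on the description supplied with the table and is not contradicted by the values.

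Genes with 4 or more libraries at 1 FPKM or above were tested on log2(FPKM + 1) with limma 3.58.1 in R 4.3.3, with trend and robust empirical Bayes moderation and group as the only term. The fit was tested on simulated data. Tables were handled in pandas 2.3.3 and figures drawn in matplotlib 3.10.9, under Python 3.11.15. The members and lists were chosen with earlier results of these data known. Named were all members, up to 4 called genes per pathway list by smallest p (or, in a list with no call, the 2 of smallest p), and the 3 genes most like Hif1a, Epas1, Hif3a and Vegfa. Kdr, Flt1, Pecam1, Arnt2, Aldoc, Slc2a3, Eno1, Zfp395, Kdm5a, P4ha1, Fto, Tet3, Gnb2l1, Stub1, Tceb2 and the row names of libraries that stand apart fall outside this rule and were chosen after their values were seen. Depth was estimated from the FPKM step of 1 fragment in 3074 genes with a single transcript. Coordinates are those of GENCODE M21 and promoter windows those of RefSeq, both GRCm38.

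Same-numbered libraries of the groups deviated together (correlation 0.574, 0.496, 0.382 and 0.523 over 12377 genes). Correlations between libraries of different numbers were not computed, so these values do not show that the numbers mark pairs, and no label states pairing. Even-numbered libraries held Xist and odd-numbered ones Ddx3y, apart from ad libitum replicate 3, which held both. The term for odd and even numbers thus nearly follows these sex-linked genes. The fit reported does not use the numbers, and the replicate block is an alternative. Alternatives were other pseudocounts (0.5 and 0.1), filters and scalings, a replicate block, a term for odd and even numbers, moderation without robust estimation, and each library left out.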

Additional observations from a re-analysis of the deposited data

How the results depend on the processing

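Of the members, Hif3a was called in all 18 alternatives that tested it, and failed the filter of 1 FPKM in all 8 libraries, which left 0 members higher. The number of members higher was 2 after median-ratio scaling, after quantile scaling and after equal-sum scaling without rows above 10000 FPKM (added after the data were seen), with Egln2 at 0.16, 0.161 and 0.155. It was 1 to 2 with a library left out. The number lower was 0 after equal-sum scaling (Arnt -0.088, Vegfa -0.239), 1 after that added scaling (Arnt -0.182) and 1 to 2 with a library left out. Leaving out each library gave 0.093 to 0.153 for Hif1a, -0.019 to 0.06 for Epas1, -0.219 to -0.166 for Arnt, 0.099 to 0.177 for Egln2 and -0.056 to 0.05 for Vhl. Vhl was 0.024, 0.115, 0.019 and 0.02 after median-ratio, equal-sum, quantile and the added scaling, Egln3 was 0.022 and Hif1an 0.045 after equal-sum scaling. The cause was not tested. Of all genes 1792 were higher after quantile scaling and 532 lower after equal-sum scaling, and 841 to 1196 were higher and 1406 to 2572 lower with a library left out. The replicate block changed no member's call and called 1773 genes higher and 2733 lower. Under it 1 PAS-domain relative, 3 genes of VHL turnover and 1 oxygen-dependent enzyme were lower, and 8 oxygen-dependent enzymes and 6 coactivators and modulators were higher. After median-ratio scaling 1 PAS-domain relative and 4 glucose targets were higher. Low members rest on few fragments: Hif3a on 11.95 to 16.97 per kilobase in ad libitum libraries.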
